A study of Mus musculus with 6 samples.

Results

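The 10 Notch pathway genes described here were measured in 6 stable clones of NIH3T3, a fibroblast line that grew out of NIH Swiss mouse embryos and divides without limit. They were the receptor genes Notch1, Notch2 and Notch3, the ligand genes Jag1 and Jag2, the modifier gene Lfng, and the target genes Hes1, Hey1, Heyl and Nrarp. They were found by gene symbol in the platform annotation, among 19057 named genes, and were read by 11 of the 45281 probes on the array, 2 for Notch2 and 1 for each other gene. The 10 genes were put together when the differences of Hes1 and Jag1 between the groups were already known. Differences between the groups are therefore given for them as a description, with their standard error (SE) and no p-value.

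In the clones FEAT 3, FEAT 15 and FEAT 20 a stable plasmid expressed the human FEAT coding sequence (also called METTL13 or EEF1AKNMT, a methyltransferase of the elongation factor eEF1A) under the promoter of elongation factor 1 alpha. Selection lasted 7 days in 10 µg/ml blasticidin S, and these clones were kept because they made much FEAT protein. The clones labelled ΔccdB, here control 1, control 2 and control 3, held the pEF-DEST51 vector from which ccdB had been deleted, without FEAT. Each value comes from 1 clone on 1 Illumina bead array read in 1 colour, so a group's spread holds both clone and array, and with so few arrays the precision is limited. Whole cultures were measured, in which more cells with a transcript and more transcript per cell cannot be told apart.

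Notch receptors are single-pass membrane proteins that are cut when a ligand on a neighbouring cell pulls on them. The freed intracellular domain enters the nucleus, joins the DNA-binding protein RBPJ and a Mastermind coactivator, and switches on genes such as those of the Hes and Hey families, which encode repressors of the basic helix-loop-helix class. In fibroblasts, Hes1 is known for repressing its own gene and for levels that rise and fall in cycles.

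Array means ran from 616 to 735 intensity units, and 37.0% to 39.9% of probes exceeded their array's background limit, an intensity of 96.3 to 102 (the most frequent log2 intensity plus 3 SDs of the values below it). Correlations between arrays over all tested probes ran from 0.988 to 0.993. Of 12 fibroblast markers 10, among them Col1a1, Vim and Pdgfrb, were above the limit on all 6 arrays, while Lum and Postn were above it on none. Their summed intensity was 41558 to 44262 in control clones and 44901 to 55259 in FEAT clones. The endothelial markers summed to 549.5 to 587 and 592 to 650, with 6 of 7 (Pecam1, Cdh5 and Kdr among them) above the limit on no array and Tek on 1. None of the 4 leukocyte markers measured was above it anywhere (sums of 305 to 315 and 316 to 339). Of 6 epithelial markers Cdh1 alone was above it (459 to 502 and 473 to 499), and of 5 neural markers Nes on every array (469 to 701 and 439 to 606). Of 6 mural markers, Cspg4, Des and Mcam were above it on every array and Rgs5 and Abcc9 on none (894 to 989 and 905 to 992). The part of these markers in the results was not tested. No probe of Eef1aknmt, the mouse gene that corresponds to FEAT, passed the threshold (5 tested). A dim probe of this gene was above the limit in 3 control clones and no FEAT clone. It was lower in FEAT clones without overlap, at a log2 difference of -0.59 (limma, adjusted p = 0.146). On its other probes the groups overlapped. The insert was human, so these probes need not read it and do not check the labels.

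Of the 10 genes, Hes1 and Jag1 were higher in every FEAT clone than in every control clone. Hes1 was 2.73-fold higher in the mean of the FEAT clones. Jag1, which was not above background in any control clone, was at least 1.31-fold higher on background-corrected values. Notch1 was above background on all 6 arrays. Hey1 lay near the limit, above it in 1 control clone and 3 FEAT clones. The groups overlapped for both genes. The other 6 genes, Notch2, Notch3, Jag2, Lfng, Heyl and Nrarp, were not above background on any of the 6 arrays.

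**Figure D1:**
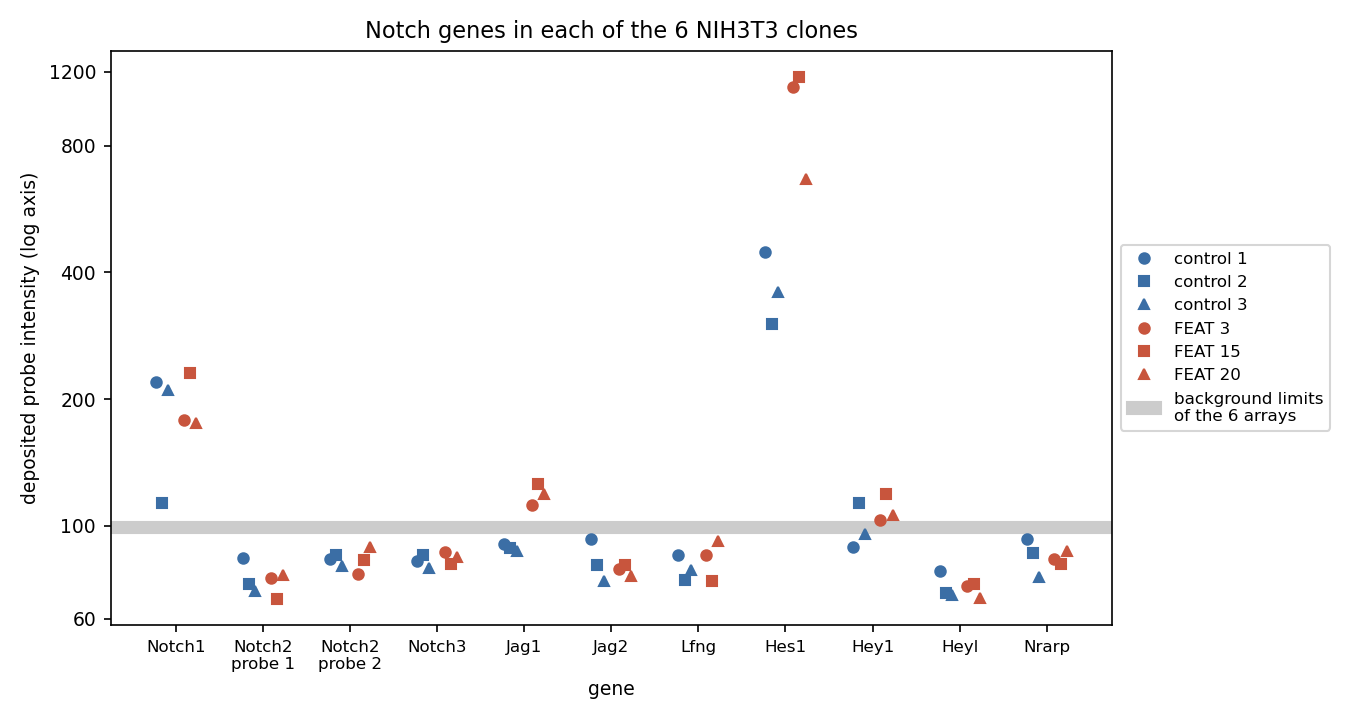
Deposited probe intensity (log axis) of the 11 probes of the 10 Notch genes in each clone, 1 point per clone, with control clones in blue and FEAT clones in red. The grey band spans the background limits of the 6 arrays. Hes1 and Jag1 are the genes whose red points all lie above their blue points. Notch1 overlaps, Hey1 straddles the band, and the other 7 probes lie under it.

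Notch1, a receptor of the family, had intensities of 219.9, 113 and 209.8 in control 1, control 2 and control 3. In FEAT 3, FEAT 15 and FEAT 20 it read 178, 230.5 and 175. Control 2 lay lowest and the other 5 clones lay between 175 and 230.5, so the groups overlapped. The log2 difference was 0.20 (SE 0.28, n = 3 clones each; differences are FEAT minus control on normalized log2 intensities throughout). Without control 2 it was -0.20, which turned its sign. The spread between clones of a group, a pooled SD of 0.52 on the log2 scale, was larger than that of 98.7% of all tested probes.

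Notch2 and Notch3 encode further receptors of the family. The Notch2 probes ranged from 67.0 to 84.0 and from 76.8 to 88.8 over the 6 clones. That of Notch3 ranged from 79.3 to 86.5. At these intensities no level and no difference between clones could be read, and a low transcript level was not detectable with these probes.

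Jag1 encodes a membrane-bound ligand that activates Notch receptors of neighbouring cells. It read 90.6, 88.4 and 87.2 in control 1, control 2 and control 3, below the background limit each time. In FEAT 3, FEAT 15 and FEAT 20 it read 112, 126 and 119, which was 1.14, 1.25 and 1.17 times the limit of the same array. The lowest FEAT clone thus lay above the highest control clone, and the clones of each group lay close together. The fitted log2 difference of 0.65 (SE 0.13) is set against control values that are not above background, so a bound of at least 1.31-fold is given beside it. The mean intensities differed 1.34-fold. The bound was computed on background-corrected, normalized values, and the uncorrected ratios to the limit given above are smaller than it. No bound was computed without the correction. The fitted log2 difference also rested on the background correction: it was 0.39 without the correction and 0.40 in the authors' deposited value table. Jag2, another ligand of the same class, ranged from 73.9 to 93.0 and was below background on all arrays.

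The 250 bases before the annotated start of Jag1 are shown because it is the one ligand gene whose groups did not overlap. They lie at chr2:137116521-137116770 on the minus strand of GRCm38.p6, from RefSeq. Those of Lfng, at chr5:140607091-140607340 on the plus strand, are shown beside them because they alone, among the members' windows, hold GTGGGAA, the core of a high-affinity RBPJ site. Capitals mark that motif and the E box CACGTG, which share 3 bases in Lfng; both strands were searched.
Jag1: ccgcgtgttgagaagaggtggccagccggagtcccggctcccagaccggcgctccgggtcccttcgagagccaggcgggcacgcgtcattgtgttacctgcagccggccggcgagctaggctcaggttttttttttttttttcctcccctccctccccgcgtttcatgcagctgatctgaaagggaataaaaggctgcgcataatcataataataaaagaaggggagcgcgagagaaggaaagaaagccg
Lfng: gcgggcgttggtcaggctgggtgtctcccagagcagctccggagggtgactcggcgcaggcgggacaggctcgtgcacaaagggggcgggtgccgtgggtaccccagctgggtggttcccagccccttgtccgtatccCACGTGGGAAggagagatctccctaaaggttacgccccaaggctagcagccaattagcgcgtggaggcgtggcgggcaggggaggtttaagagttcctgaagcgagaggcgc

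A window was given for 7 of the 10 genes; Hes1, Hey1 and Heyl had none. GTGGGAA was in 1 of the 7 and in 5.42% of all 32851 windows of this length. The E box was in 2 of the 7, Lfng and Nrarp, and in 6.02% of all. The N box CACNAG, a sequence that Hes repressors bind, was in 5 of the 7, Notch1, Notch2, Notch3, Lfng and Nrarp, and in 36.7% of all. Jag1 and Jag2 held none of these letters in this window. A match is a description of the letters and not of a bound site.

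Lfng encodes Lunatic fringe, a glycosyltransferase that adds sugar to Notch receptors and alters their response to ligands. Its probe ranged from 73.9 to 91.7 and was below background on all arrays.

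Hes1, the most studied direct target of Notch, is a transcriptional repressor that holds back differentiation. Its intensity was 447, 302 and 359.7 in control 1, control 2 and control 3. In the FEAT clones it was 1105 in FEAT 3, 1167 in FEAT 15 and 668 in FEAT 20. Every FEAT clone lay above every control clone, and FEAT 20 lay nearest to the controls. Against the mean of the controls on normalized values, FEAT 3 was 3.72-fold higher, FEAT 15 3.19-fold and FEAT 20 1.71-fold. The controls averaged 369 ± 73.1 and the FEAT clones 979.9 ± 272 intensity units (SD, n = 3 clones per group), a log2 difference of 1.45 (SE 0.25). The size of this difference was larger than that of 99.9% of all tested probes. Nothing is read from this rank, because the gene was chosen with the difference known. Hes1 also varied within a group, with a pooled SD of 0.46 that was larger than that of 97.9% of tested probes. The log2 SD was 0.59 in FEAT clones and 0.25 in control clones.

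Hey1, a related repressor, read 89.2, 113 and 95.7 in control 1, control 2 and control 3, of which control 2 was above background. It read 103, 119 and 106 in FEAT 3, FEAT 15 and FEAT 20, all above background. The groups overlapped, with control 2 above 2 of the 3 FEAT clones in intensity. The log2 difference was 0.18 (SE 0.18), and it ran from 0.0010 without control 1 to 0.36 without control 2. Heyl, another member of that family, ranged from 67.4 to 78.1 and Nrarp, a feedback inhibitor that acts on the Notch transcription complex, from 75.6 to 92.9. Both were below background on all arrays, so that of the 4 target genes, Hes1 was the one well above it. In each FEAT clone 4 of the 11 probes were above background, against 2, 3 and 2 in control 1, control 2 and control 3. Over all probes the shares were 37.0%, 38.8% and 39.9% in FEAT 3, FEAT 15 and FEAT 20. They were 39.0%, 38.0% and 38.0% in control 1, control 2 and control 3. Nothing is read from the count of the 11, since it turns on Jag1, chosen with its difference known, and on Hey1, which lay near the limit.

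**Figure D2:**
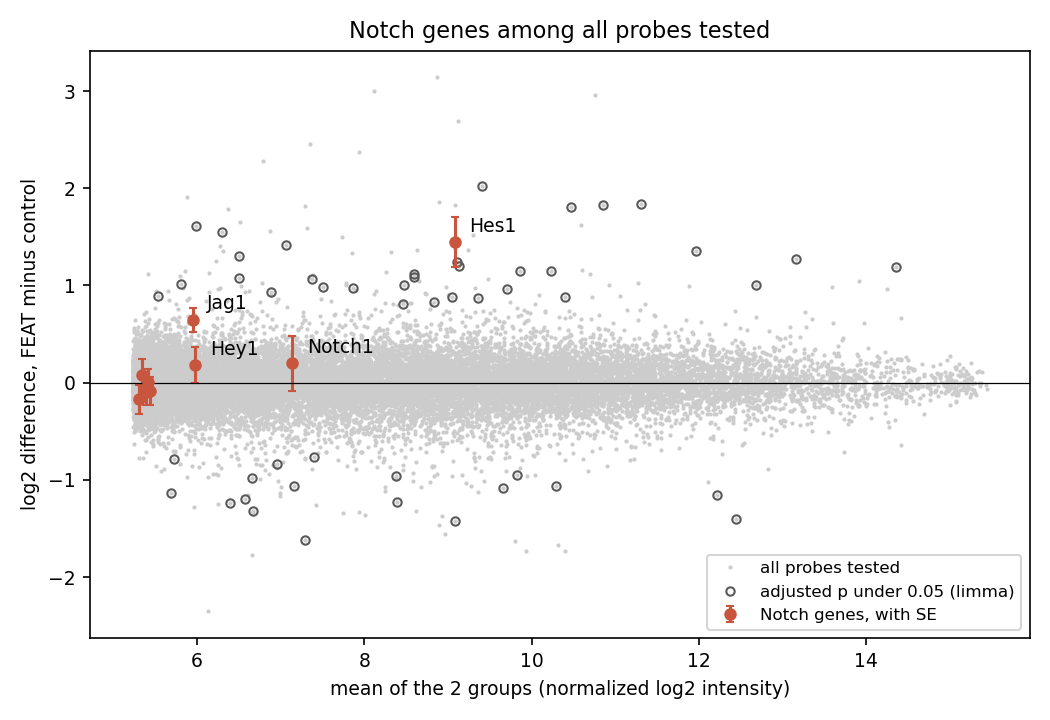
Log2 difference, FEAT minus control, against the mean normalized log2 intensity of both groups for the 27169 tested probes (grey), the 50 that passed an adjusted p of 0.05 in limma (rings) and the 9 tested probes of the Notch genes (red, with SE). Hes1, at 1.45, lies at the outer edge of the cloud, Jag1, at 0.65 (fitted, its controls not above background), near its upper edge among dim probes, and the others around 0.

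The design sets fibroblasts that overexpress FEAT against fibroblasts that do not. Of the 11 probes, 9 were among the top 60% of probes by mean that were tested; Heyl and 1 Notch2 probe were not. None of the 9 passed (limma, Benjamini-Hochberg adjusted p under 0.05), where 0.184% of all 27169 tested probes did. At an unadjusted p under 0.05, 2 were higher in FEAT clones, Hes1 and Jag1, against 4.51% of all probes, and these 2 were also higher without overlap between groups, against 7.18%. Hes1 was past the threshold in 4 of 12 alternatives. These were median scaling, the deposited value table, no filter on dim probes, and the omission of FEAT 20. In these, 0.195%, 0.206%, 0.113% and 0.228% of all probes passed. Nothing is read from these counts or from the alternatives that Hes1 passed, because the genes were chosen with this comparison known.

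By Pearson correlation over the 6 clones, the genes most like Hes1 were 2900026A02Rik (r = 0.996), Phldb2 (0.988), Actg2 (0.988), Wdr48 (0.984) and Wdr73 (0.982), out of 13314 genes compared. The 6 points fall into the same 2 groups for every gene and share their arrays, so this is a ranking and not a test. Actg2, a smooth muscle actin gene, read 316, 164 and 331 in control 1, control 2 and control 3. It read 2334, 2340 and 594 in FEAT 3, FEAT 15 and FEAT 20. As for Hes1, control 2 was the lowest clone of all and FEAT 20 the lowest FEAT clone. The same order of these clones held for Phldb2, which binds phosphoinositides at the cell cortex, at 216 in control 2 and 385 in FEAT 20. These genes were picked for their likeness to Hes1, so a shared order of clones is built in. In Wdr73 the lowest FEAT clone by intensity was FEAT 3, at 253.5, below FEAT 20 at 276. On the normalized log2 values used for the ranking, FEAT 20 was its lowest FEAT clone, at 7.7387, with FEAT 3 at 7.935. Wdr48 was below background on all arrays.

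The rest of the pathway was described by 67 other genes listed by role, not by how they moved, though earlier results of these data were known. Of these, 60 had a probe named here, 51 were tested on their brightest probe, and 42 were above background on at least 3 arrays. None passed in either direction (limma, Benjamini-Hochberg over all probes), where 0.225% of 13315 genes did. At an unadjusted p under 0.05, 2 of the 51 were higher and 4 lower, beside 5.2% and 4.94% of all genes. Without overlap between groups, 5 were higher and 4 lower, beside 7.95% and 7.24% of all genes. The median log2 difference was -0.02, and 24 of 51 were positive, beside a median of 0.01 and 51.6% positive over all genes tested.

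**Figure D3:**
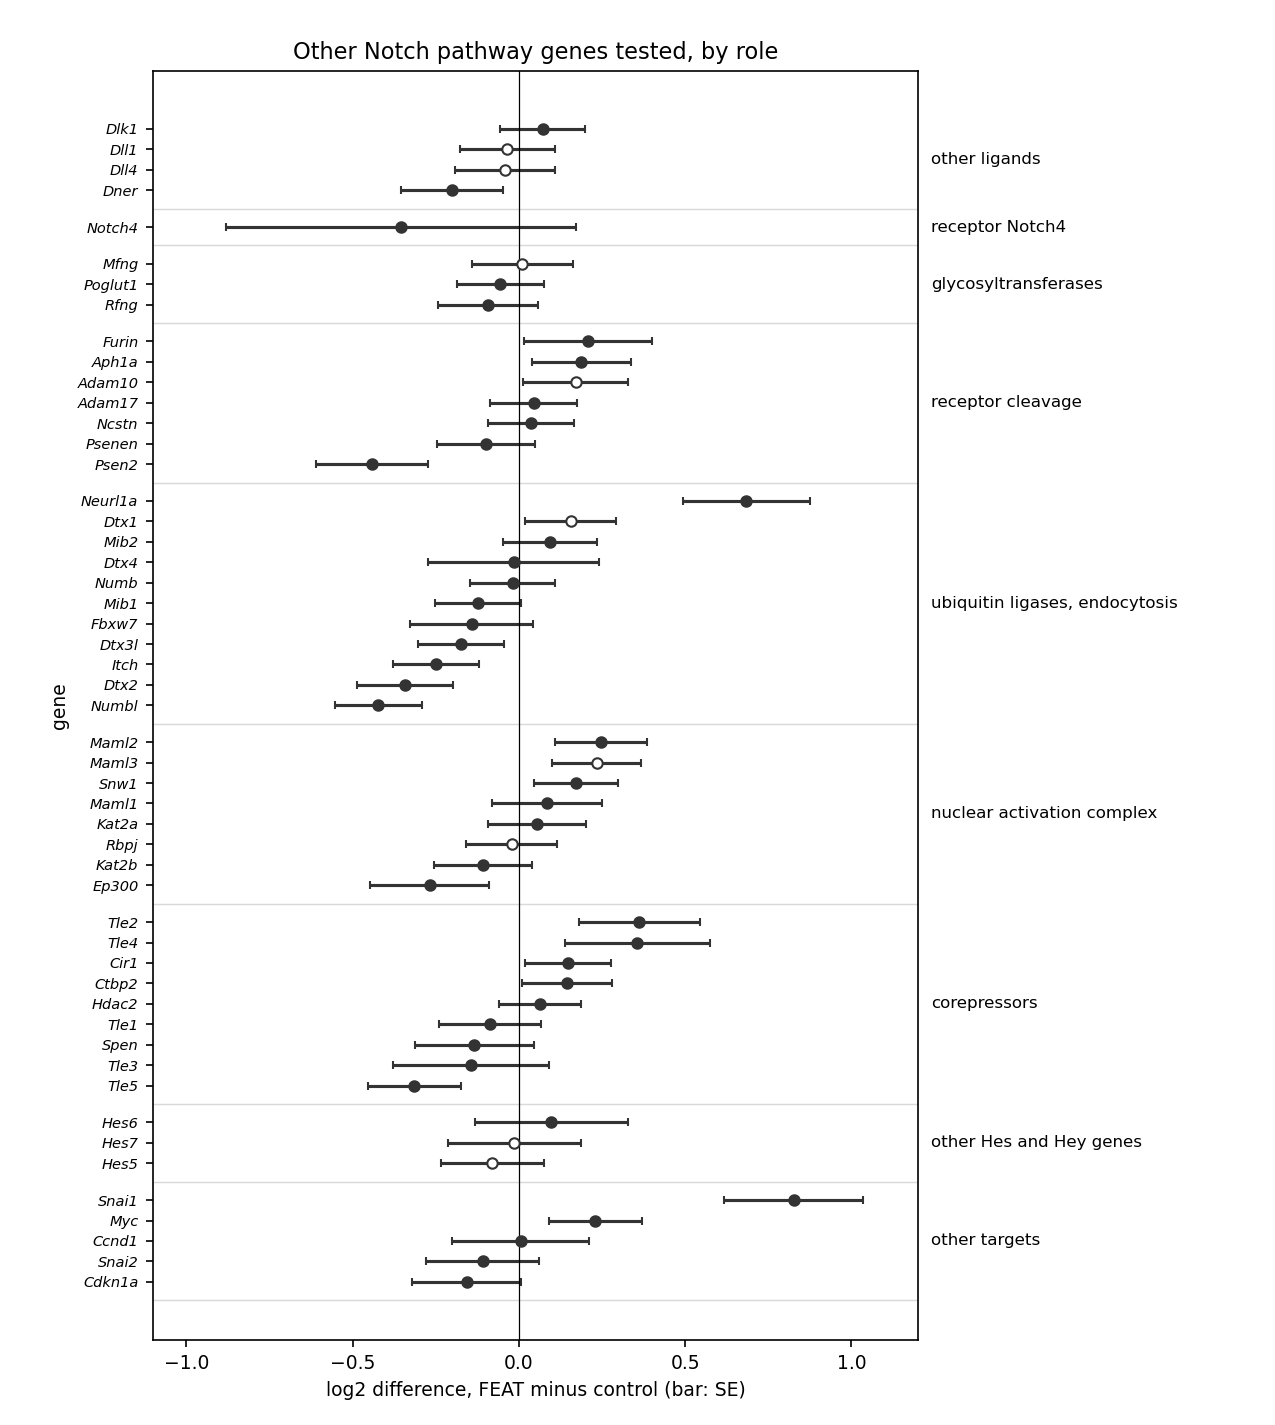
Log2 difference, FEAT minus control, with its SE for the 51 tested genes of the Notch pathway outside the 10, grouped by role. Filled points were above background on at least 3 of 6 arrays and open points were not. The points lie on both sides of 0 in every role with more than 1 gene, and Snai1, at 0.83, and Neurl1a, at 0.68, lie farthest to the right.

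Among the other ligands, Dll1, an activating ligand, was below background on all arrays, with 82.6 ± 1.55 intensity units in the controls and 83.9 ± 6.40 with FEAT (SD, n = 3 clones per group). In this role 2 genes, Dlk1 and Dner, were above background on at least 3 arrays. Dlk1 was bright, with means of 25872 in control and 27094 in FEAT clones, and a log2 difference of 0.07 (SE 0.13). Dner had the larger difference, -0.20 (SE 0.15), and did not pass (limma, adjusted p = 0.745). Dner lay near the limit, above it in 3 control and 2 FEAT clones, and its other probe was below background on all arrays.

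Notch4, the remaining receptor, varied from clone to clone. It read 503, 373 and 1056 in control 1, control 2 and control 3, and 543, 923 and 219.8 in FEAT 3, FEAT 15 and FEAT 20. The highest clone was a control and the lowest a FEAT clone, 4.81-fold apart, and the groups overlapped. Its pooled SD, 1.05 on the log2 scale, was larger than that of 99.8% of tested probes. The log2 difference, -0.36 (SE 0.53), did not pass (limma, adjusted p = 0.885), and its sign turned without FEAT 20, to 0.33, and without control 3, to 0.12. Without FEAT 15 it was -0.83. On its other probe control 3 was again the highest, at 139, and FEAT 20 the lowest, at 81.4. That probe was above background in 2 control clones and in no FEAT clone, so the order of the FEAT clones cannot be read from it.

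Of the fringe and other sugar-transferring enzymes, Rfng had a difference of -0.09 (SE 0.15) and Mfng was below background on all arrays. Pofut1 was not analysed here. Of the proteases that cut the receptor, Adam17 differed by 0.04 (SE 0.13), and Adam10, which makes the first ligand-induced cut, was below background on both probes. Ncstn, a subunit of gamma-secretase, differed by 0.04 (SE 0.13). Psen2, a catalytic subunit of gamma-secretase, had the largest difference in this role, -0.44 (SE 0.17; limma, adjusted p = 0.440), and its other probe gave 0.01. None of the 7 tested genes of receptor cleavage passed.

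Neurl1a, a ubiquitin ligase of the Neuralized family, which acts on ligands, read 907, 647 and 715 in control 1, control 2 and control 3. It read 1007, 1029 and 1786 in FEAT 3, FEAT 15 and FEAT 20. FEAT 20 was the highest, the groups did not overlap, and the difference of 0.68 (SE 0.19) did not pass (limma, adjusted p = 0.252). Its other probe was below background on all arrays. The differences of Mib1, which ubiquitinates ligands, Numb, which inhibits Notch, and Fbxw7, which marks the intracellular domain for degradation, were -0.12, -0.02 and -0.14 (SE 0.13, 0.13 and 0.18). None of the 11 tested genes of this role passed.

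In the nuclear complex Rbpj was above background in 1 control clone and no FEAT clone on its brightest probe, with a difference of -0.02 (SE 0.14). The coactivator Maml1 differed by 0.09 (SE 0.17), and Ep300, an acetyltransferase, by -0.27 (SE 0.18; limma, adjusted p = 0.704). Tle2, a corepressor of the Groucho family, which Hes proteins recruit, differed by 0.36 (SE 0.18; limma, adjusted p = 0.591). None of the 8 nuclear and 9 corepressor genes tested passed.

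Of the other Hes and Hey genes, Hes5 and Hey2 were below background on all arrays. Hes6, which opposes Hes1 in neural cells, was the one above it on at least 3 arrays, with 262 ± 31.9 intensity units in the controls and 302 ± 113 with FEAT (SD, n = 3 clones per group), a difference of 0.10 (SE 0.23). Among genes described as Notch targets in some cell types, the zinc finger repressor gene Snai1 read 654, 616 and 762 in control 1, control 2 and control 3. It read 1059, 1701 and 975 in FEAT 3, FEAT 15 and FEAT 20. On this, its brightest probe, the groups did not overlap and FEAT 20 was the lowest FEAT clone, as for Hes1. On its other probe they overlapped in normalized values, with control 3 at 7.43 and FEAT 20 at 7.40, though not in intensity. The difference, 0.83 (SE 0.21) on the brightest probe and 0.51 on the other, did not pass (limma, adjusted p = 0.201 and 0.420).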

How the data were processed

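Total RNA of 3 FEAT and 3 control clones was amplified with the Illumina TotalPrep kit and labelled with Cy3, per the labels' protocols. The submitters' processing notes name BeadStudio. The deposited values were linear probe intensities with background not subtracted (lowest 50.1 to 53.1) and no detection p in the tables used here. The authors' deposited value table repeated these intensity values times 1 factor per array, 0.925 to 1.10, giving each array a mean of 680, on a linear scale and not centred by gene (medians 81.6 to 92.6).

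With R 4.3.3 and limma 3.58.1, normexp was fitted to the signals (offset 16), followed by quantile normalization and log2. This correction spreads dim probes apart, which affects folds of dim genes. The top 60% of probes by mean over 6 arrays, 27169 probes, were fitted with lmFit and eBayes, two-sided, with Benjamini-Hochberg adjustment over them. A gene's brightest probe stood for it in lists. For Jag1, the bound was computed on the normalized log2 values. It sets the mean of the FEAT clones against the mean, over control arrays, of the probe's own value or, if higher, the array's lowest value above the limit. Named were all 10 genes, the pathway genes past the threshold, the largest difference above background in each role, 16 fixed pathway genes, and the 5 genes most correlated with Hes1. Dlk1 was named as well, for its brightness among the ligands and related genes. The 10 members and the lists were chosen with earlier results of these data known. Symbols came from the GEO platform annotation: 34885 probes had 1 gene, 18 several and 10378 none here. On simulated data with 27169 probes for FEAT against control, 40% of 1.5-fold, 98% of 2-fold and 100% of 3-fold changes were recovered. The simulated noise was normal and independent, with the SD fitted for each probe and no effect shared within a clone or array. The changed probes were picked at random. These shares check the code and do not measure what could be detected in the real clones or for a variable probe such as that of Hes1. Alternatives were no background correction, median scaling, the deposited value table, no filter, a filter on the background limit, a trended robust variance, the mean of a gene's probes, and omission of each clone. The clones were separate lines, and the sources used here give no slide, passage or culture conditions.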

Additional observations from a re-analysis of the deposited data

How the results depend on the processing

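The count of the 9 to 11 (4 with the filter on the background limit) Notch probes past the threshold was 0 in the reported fit. It was 1, Hes1 each time, with median scaling, with the deposited value table and with no filter. With a clone left out it ran from 0 to 1 (1 without FEAT 20). Nothing is read from this count, because the genes were chosen with this comparison known. The difference of Hes1 ran from 1.35 to 1.46 over the scalings and filters and from 1.22 to 1.78 over omissions of a clone. The fitted difference of Jag1 fell from 0.65 to 0.39 without background correction and was 0.40 in the deposited value table. The number of probes past the threshold over all probes, 50, ran from 0 without control 1 to 158 without control 2, and was 10 without control 3 and 18 without FEAT 3. The pathway genes had 0 calls in 13 of 13 alternatives, with a median from -0.02 to 0.06. No paired analysis was possible because the clone numbers of the groups, 1, 2, 3 and 3, 15, 20, share a single number and name separate lines. A slide block was planned and not run, since no slide was given. Signal over background limits 7 of the 11 probes, which lay at most at 91.1% of the limit of their array.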
